A study of Homo sapiens with 9 samples.

Results

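MIR210HG, NEAT1, MALAT1, PVT1, LUCAT1, KCNQ1OT1 and HULC are long noncoding RNAs with a described place in the response to low oxygen or in liver cancer. They were chosen by gene symbol, and the 7 symbols matched 7 of the 60683 genes in the count table. RNA was sequenced from 9 cultures of Hep3B, a human liver cancer cell line, in 3 groups of 3 libraries. The cells received vehicle (DMSO) at 20% O2, vehicle at 1% O2, or 32-134D at 1% O2, each for 24 hours, in DMEM-based medium with serum. 32-134D is an inhibitor of the hypoxia-inducible factors (HIFs) HIF-1 and HIF-2, and the comparisons ask which transcripts hypoxia changed and which of those changes were opposed by the inhibitor. The labels give no dose of 32-134D, no culture received 32-134D at 20% O2, and all cultures came from the same cell line, seeded as separate replicates.

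HIF-1 and HIF-2 are transcription factors whose alpha subunits are destroyed in the presence of oxygen and accumulate when oxygen is low. They bind short DNA elements with the core ACGTG or GCGTG near their target genes. Long noncoding RNAs are transcripts with no known protein product, and many of them stay in the nucleus, where they organise RNA-protein bodies or act on neighbouring genes. MIR210HG is the host transcript of miR-210, a microRNA induced by HIF in many cell types. NEAT1 is the scaffold of paraspeckles, and MALAT1 is located in nuclear speckles, bodies rich in splicing factors. KCNQ1OT1 is made from the paternal chromosome and silences imprinted genes around it. PVT1 (ENSG00000249859) is the neighbour of the oncogene MYC on chromosome 8, LUCAT1 is known as a stress-responsive transcript, and HULC was named for its high level in liver cancer.

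MIR210HG, NEAT1, MALAT1 and KCNQ1OT1 lie on chromosome 11 of the GRCh38 assembly (GENCODE version 29). MIR210HG (ENSG00000247095) covers 565660 to 568457 on the minus strand. NEAT1 (ENSG00000245532) covers 65422774 to 65445540 and MALAT1 (ENSG00000251562) covers 65497688 to 65506516, both on the plus strand. KCNQ1OT1 (ENSG00000269821) covers 2608328 to 2699994 on the minus strand, inside the gene KCNQ1, which is read from the other strand. LUCAT1 (ENSG00000248323) covers 91054834 to 91314547 on the minus strand of chromosome 5 and overlaps ADGRV1 on the other strand. The HULC row (ENSG00000285219) stands for a model on chromosome 6 from 8435568 to 9294133, a span of 859 kb with 78 exon blocks, whereas RefSeq places HULC itself at 8652269 to 8653856, a span of 1.59 kb. The reads were counted on a later annotation whose exons were not available here, so the values given for HULC may count this wider model. Reads from HULC and from the other transcripts of the wider model cannot be told apart.

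The promoter of MIR210HG is shown because this transcript was higher in hypoxia and lower with 32-134D, and that of MALAT1 as the promoter of an abundant member that passed no threshold. Promoter sequences of 3 of the 7 members were found in the RefSeq table (assembly GRCh38.p14), each running from 250 bases before to 50 bases after the start site. Capitals mark ACGTG or GCGTG on either strand.
MIR210HG, chr11:568408-568707, minus strand: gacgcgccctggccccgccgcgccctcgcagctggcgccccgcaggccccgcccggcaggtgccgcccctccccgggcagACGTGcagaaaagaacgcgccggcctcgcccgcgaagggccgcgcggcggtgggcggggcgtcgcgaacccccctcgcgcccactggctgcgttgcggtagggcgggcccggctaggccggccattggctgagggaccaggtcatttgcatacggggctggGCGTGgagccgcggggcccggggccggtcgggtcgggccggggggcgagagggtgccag
MALAT1, chr11:65497488-65497787, plus strand: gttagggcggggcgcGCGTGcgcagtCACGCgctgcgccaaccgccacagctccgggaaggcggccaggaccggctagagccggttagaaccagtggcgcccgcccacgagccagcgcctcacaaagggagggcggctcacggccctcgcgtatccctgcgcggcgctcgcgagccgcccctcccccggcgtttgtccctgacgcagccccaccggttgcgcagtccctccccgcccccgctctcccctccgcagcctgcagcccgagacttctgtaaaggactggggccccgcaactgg
In the MIR210HG window, ACGTG begins at position -170 from the start site and GCGTG at position -9. In the MALAT1 window printed, GCGTG occurs on the plus strand at -235 and on the minus strand, printed as CACGC, at -224. The table holds a second MALAT1 window, from 65498795 to 65499094, with GCGTG on the minus strand at -208. The LUCAT1 window, on chromosome 5 from 91314353 to 91314652, holds neither. Of the 35116 promoter windows of the same length in the table, 21.4% hold ACGTG, 36.5% hold GCGTG and 48.4% hold either, so a match is a description of the letters and not a binding site.

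The products of the MIR210HG locus and the end of MALAT1 are printed because these RNAs are defined by them. The mature arms of miR-210 are given by RefSeq on chromosome 11, minus strand, at 568112 to 568133 (3p) and 568150 to 568171 (5p), with the seed, bases 2 to 8, in capitals.
hsa-miR-210-3p: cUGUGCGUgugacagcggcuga
hsa-miR-210-5p: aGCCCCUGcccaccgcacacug
MALAT1 ends not in an added poly(A) tail but in a genomic A-rich run that folds into a triple helix, and cleavage just after it releases mascRNA, a small RNA that resembles a tRNA. The last 90 bases before mascRNA, chr11:65506027-65506116 on the plus strand, are shown with the run of 13 A in capitals, which lies 6 bases before the cleavage site.
MALAT1 end: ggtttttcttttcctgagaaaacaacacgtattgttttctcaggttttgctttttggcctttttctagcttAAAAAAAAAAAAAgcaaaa

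Total counts ran from 6013980 to 40549699 reads per library, with the smallest library in vehicle replicate 2 at 20% O2. Replicate 3 of 32-134D stood apart from the other 32-134D libraries, with chi-square statistics of 36.4 and 32.5 for each degree of freedom against them, where the other replicate pairs gave 1.62 to 12. Values of the members that rest on it, and calls of listed genes that changed without it, are given without it as well. Levels are given in CPM (counts-per-million), the reads on a gene scaled to the size of the library with the TMM method, which corrects for differences in composition between libraries. The libraries expressed the hepatocyte markers, with 10 of 10 listed genes counted, ALB at 5950 to 10200 CPM and the summed level at 20000 to 21300 CPM in vehicle at 20% O2, 15100 to 19100 in vehicle at 1% O2 and 12200 to 19500 with 32-134D. Of 6 markers of other cell types, ACTA2 was at 0 in every library and CDH5 and PTPRC reached at most 1 and 3 reads. PECAM1 reached at most 28 reads, COL1A1 stood at 2.73 to 10.4 CPM, and the bile duct marker KRT7 was the highest, at 19.5 to 44.4 CPM. The summed level of these 6 was 29.7 to 33.8 CPM in vehicle at 20% O2, 24 to 26 in vehicle at 1% O2 and 30.6 to 56.1 with 32-134D.

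Hypoxia lowered NEAT1 and KCNQ1OT1 and raised MIR210HG, and 32-134D moved each of them the opposite way. A gene was called when its false discovery rate (FDR, the Benjamini-Hochberg adjusted p of edgeR's quasi-likelihood test over 22672 genes) was below 0.05 and its fold change above 1.5. Each of the 7 members passed the filter of 10 reads summed over the 9 libraries. In vehicle at 1% against 20% O2, 2 members were called higher, MIR210HG and LUCAT1, where 19.5% of all tested genes were, and 2 were called lower, NEAT1 and KCNQ1OT1, where 20.3% were. With 32-134D against vehicle at 1% O2, NEAT1 and KCNQ1OT1, 2 members, were called higher against 16.2% of all genes, and 1 member, MIR210HG, was called lower against 13.7%. With 32-134D at 1% against vehicle at 20% O2, 1 member, LUCAT1, was called higher, where 3.0% of all genes were, and 0 were called lower, where 0.516% were, although 4 of the 7 had an unadjusted edgeR p below 0.05 and DESeq2 called 0 of the 6 to which it gave an adjusted p. With 7 members, the counts cannot be set apart from these shares. The first and second comparisons share the vehicle libraries at 1% O2, so opposite signs in them are not independent. RNA from whole cultures was measured, so fewer cells with a transcript and less of it per cell cannot be told apart.

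**Figure D1:**
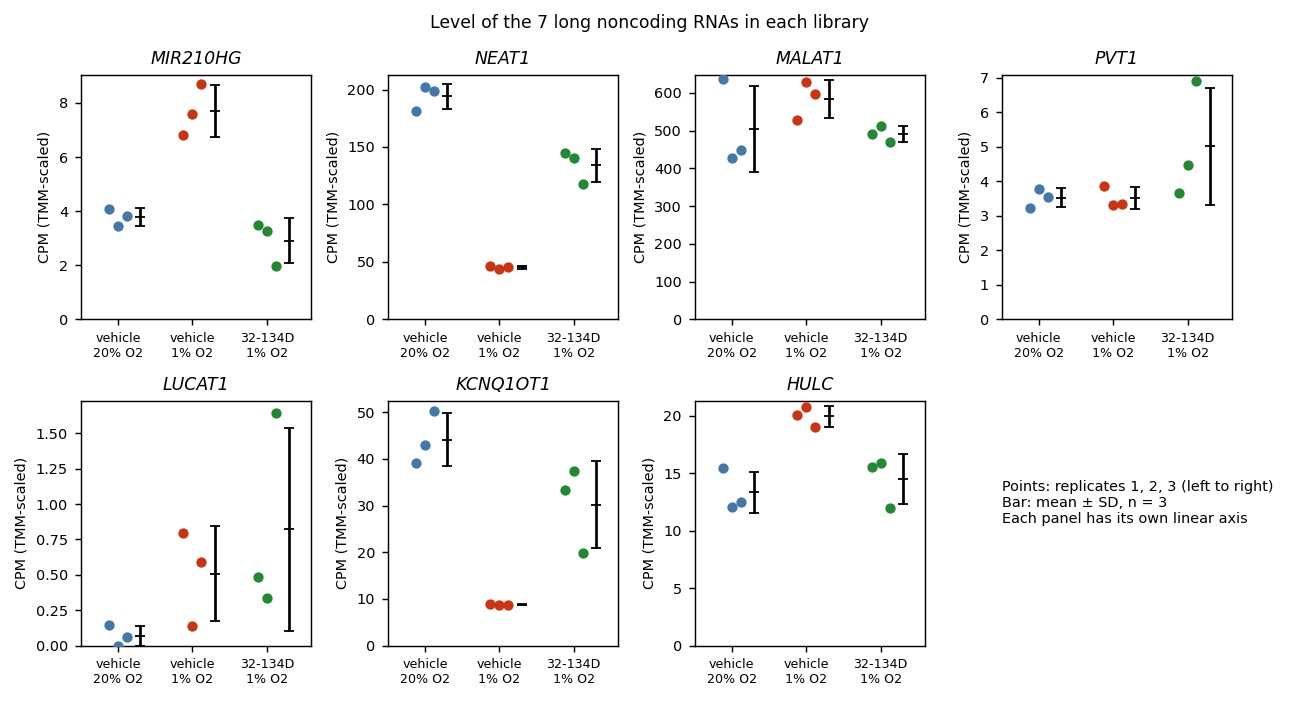
Level of each of the 7 long noncoding RNAs in the 9 libraries, in TMM-scaled CPM on a linear axis per panel; points are replicates 1 to 3 and the bar is the mean ± SD (n = 3). NEAT1 and KCNQ1OT1 dropped to 45.4 and 8.79 CPM in vehicle at 1% O2, while MIR210HG peaked there at 7.71 CPM.

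**Figure D2:**
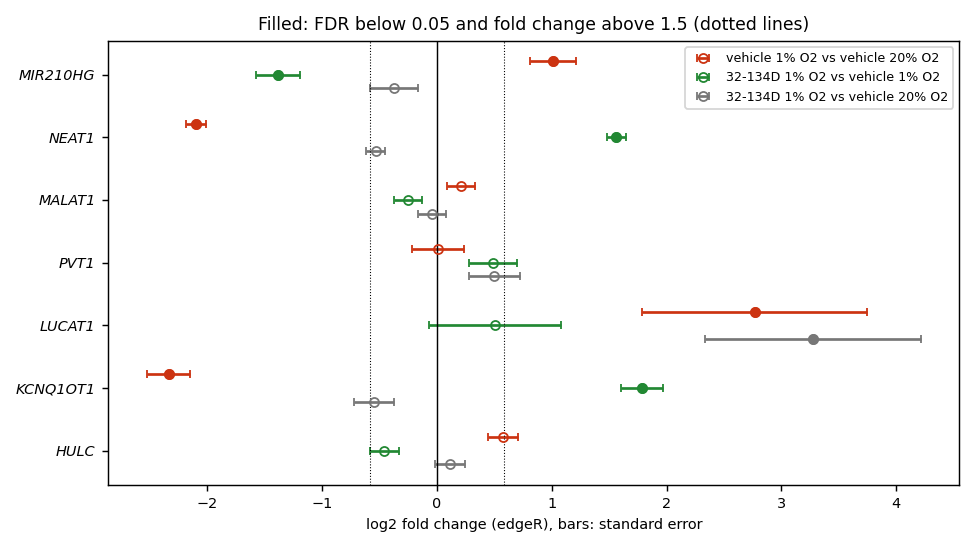
Log2 fold change of the 7 members with its standard error in the 3 comparisons; filled points passed both thresholds (FDR below 0.05, fold change above 1.5, dotted lines). NEAT1 and KCNQ1OT1 lie at -2.09 and -2.33 in hypoxia and at 1.56 and 1.78 with 32-134D, and MIR210HG lies at 1.01 and -1.38.

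MIR210HG, which carries the hairpin of miR-210, rose in hypoxia and fell with 32-134D. It stood at 4.09, 3.46 and 3.80 CPM in the vehicle libraries at 20% O2, at 6.81, 7.59 and 8.71 in those at 1% O2, and at 3.49, 3.27 and 1.97 with 32-134D. Every hypoxic vehicle library lay above every library of the other groups. The log2 fold change was 1.01 ± 0.20 (SE, n = 3 per group, edgeR FDR 0.000542) in hypoxia, a 2.01-fold rise, and -1.38 ± 0.19 (FDR 2.85e-05) with 32-134D. Against vehicle at 20% O2 the 32-134D libraries differed by -0.37 ± 0.21 on the log2 scale, with an FDR of 0.303 and a 95% interval from -0.822 to 0.078, and the groups overlapped. The lowest value was that of replicate 3 of 32-134D, and without this library the log2 fold change with 32-134D was -1.18. Its counts were small, 22 to 257 reads per library.

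The row of MIR210 itself held 28 reads in all, 0, 0 and 8 in vehicle at 20% O2, 6, 4 and 4 in vehicle at 1% O2, and 3, 3 and 0 with 32-134D. These reads fell on the hairpin region inside the host transcript and are no measure of the mature arms printed above, and the groups overlapped. Around MIR210HG, RASSF7 rose by 0.75 and HRAS by 0.88 on the log2 scale in hypoxia and both fell with 32-134D, by 0.93 and 0.77. LRRC56, which lies next to HRAS, moved the other way in the same comparisons, by -2.36 ± 0.15 and then 1.93 ± 0.15 on the log2 scale. PHRF1, a further neighbour, differed by -0.41 ± 0.07 and then 0.25 ± 0.07, both under the fold change threshold.

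NEAT1, on which paraspeckles assemble, was the called member with the smallest error. It stood at 181.6, 201.8 and 198.9 CPM in vehicle at 20% O2, at 46.6, 43.9 and 45.7 in vehicle at 1% O2, and at 144.7, 140.0 and 118.0 with 32-134D. The 3 groups did not overlap, and 32-134D lay between the vehicle groups. NEAT1 fell by 2.09 on the log2 scale in hypoxia (SE 0.09, FDR 1.07e-10), to a level 4.27-fold lower, and it rose 2.96-fold with 32-134D (log2 fold change 1.56 ± 0.08, FDR 4.71e-09). A difference of -0.53 ± 0.08 from vehicle at 20% O2 remained with 32-134D (FDR 0.000819), below the fold change threshold of 1.5. The short polyadenylated isoform and the long isoform that builds paraspeckles share their first part, and counts per gene do not separate them.

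Of 12 listed paraspeckle proteins, 2 rose in hypoxia (HNRNPK by 0.70 and DAZAP1 by 0.59 on the log2 scale) and 2 fell (HNRNPM, log2 fold change -0.79, and SMARCA4, log2 fold change -0.96), 16.7% each way beside 19.5% and 20.3% of all genes tested. The median of the list was -0.04, beside a median of 0.001 over all genes tested. HNRNPK takes part in the processing of the NEAT1 end, and SMARCA4 is the ATPase of a chromatin remodelling complex. Among the core paraspeckle proteins, NONO differed by 0.37 ± 0.07, SFPQ by -0.03 ± 0.08 and PSPC1 by -0.14 ± 0.08 in hypoxia, and none of these passed the fold change threshold. With 32-134D, SMARCA4 alone of the 12 was called, at 0.78 ± 0.07, a share of 8.33% higher beside 16.2% of all genes tested. Scaled to total library size, 0 of the 12 rose and 3 fell in hypoxia, with a median of -0.25, so the balance of this list depended on the scaling.

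MALAT1, the most abundant member, was not called in any comparison. It stood at 636.1, 428.0 and 449.5 CPM in vehicle at 20% O2, at 528.9, 627.5 and 597.2 in vehicle at 1% O2, and at 490.3, 513.2 and 469.5 with 32-134D. The vehicle groups overlapped, with replicate 1 at 20% O2 above every other library, whereas all hypoxic vehicle libraries lay above all 32-134D libraries. The log2 fold change in hypoxia was 0.21 ± 0.12 (FDR 0.161, 95% interval -0.050 to 0.472), and under total library size scaling it was -0.0061. It was 0.36 (FDR 0.0016) without vehicle replicate 1 at 20% O2, still under the fold change threshold, and 0.11 without replicate 2 and 0.13 without replicate 3 of that group. With 32-134D it was -0.25 ± 0.12 (FDR 0.105, interval -0.511 to 0.009), running from -0.32 to -0.14 when each library was left out, with the smallest value without vehicle replicate 2 at 1% O2, and -0.063 under total library size scaling. A missed threshold does not show that its level was the same in the groups.

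Of 12 listed nuclear speckle proteins, 0 rose and 4 fell in hypoxia, shares of 0% and 33.3% beside 19.5% and 20.3% of all genes tested. The 4 were the splicing factors SRSF2 (log2 fold change -0.87 ± 0.07), SRSF5 (-1.11 ± 0.08) and SRSF7 (-0.63 ± 0.08) and the scaffold protein SRRM2 (-0.88 ± 0.11). SRSF2, SRSF5 and SRRM2 then rose with 32-134D, by 0.60, 0.90 and 0.77 on the log2 scale, and 0 of the 12 fell. These shares are 25.0% and 0%, beside 16.2% and 13.7% of all genes tested. Under total library size scaling 6 fell in hypoxia and 5 rose with 32-134D. The median of the list was -0.36 in hypoxia and 0.27 with 32-134D, beside 0.001 and -0.01 over all genes tested.

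NEAT1 and MALAT1 lie next to each other, and the ratio of their reads needs no scaling between libraries. NEAT1 gave 28.6, 47.1 and 44.3 reads per 100 MALAT1 reads in vehicle at 20% O2, 8.82, 7.0 and 7.66 in vehicle at 1% O2, and 29.5, 27.3 and 25.1 with 32-134D. The hypoxic vehicle libraries lay below all others, with an exact two-sided permutation p of 0.1 against either group, the smallest that 3 libraries against 3 allow. KCNQ1OT1 gave 6.13, 10.1 and 11.2 reads per 100 MALAT1 reads in vehicle at 20% O2, 1.68, 1.38 and 1.48 in vehicle at 1% O2, and 6.80, 7.30 and 4.21 with 32-134D, with the same separation. Against NEAT1, KCNQ1OT1 moved less, although the hypoxic vehicle libraries lay below those at 20% O2. It gave 21.5, 21.3 and 25.3 reads per 100 NEAT1 reads in vehicle at 20% O2, 19, 19.8 and 19.3 in vehicle at 1% O2, and 23.0, 26.8 and 16.7 with 32-134D. The last of these is again replicate 3.

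**Figure D3:**
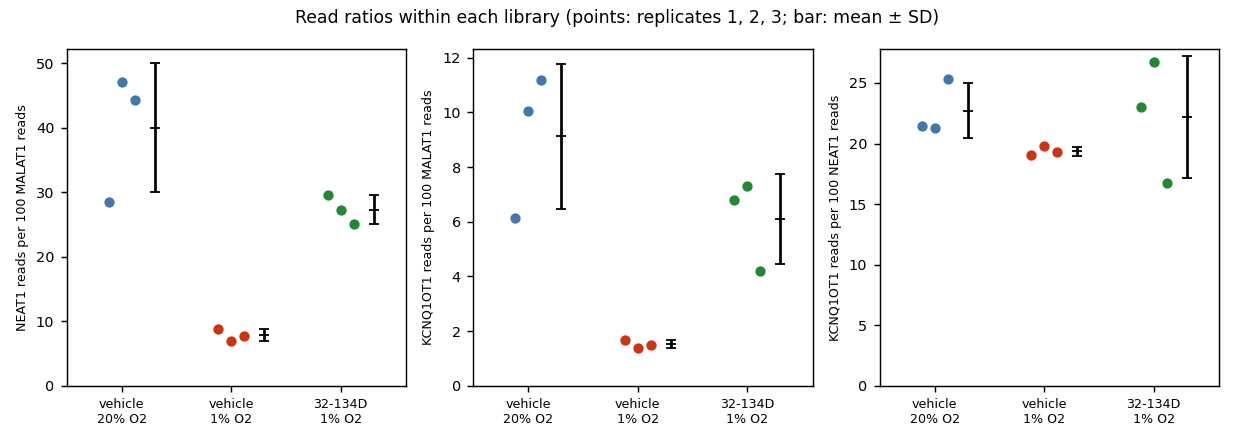
Reads of NEAT1 per 100 MALAT1 reads, of KCNQ1OT1 per 100 MALAT1 reads and of KCNQ1OT1 per 100 NEAT1 reads in each library; points are replicates and the bar is the mean ± SD (n = 3). The first 2 ratios fell to at most 8.82 and 1.68 in vehicle at 1% O2, while the third lay between 16.7 and 26.8 in all 9 libraries.

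KCNQ1OT1, the antisense RNA of the KCNQ1 imprinted domain, had the largest change in hypoxia of the members apart from the sparse LUCAT1, a rank that did not hold with the length trend removed. It stood at 39.0, 43.0 and 50.3 CPM in vehicle at 20% O2, at 8.88, 8.68 and 8.82 in vehicle at 1% O2, and at 33.3, 37.5 and 19.8 with 32-134D. The 3 groups did not overlap. The log2 fold change was -2.33 ± 0.19 in hypoxia (FDR 7.51e-08), to a level 5.04-fold lower, and 1.78 ± 0.18 with 32-134D (FDR 1.82e-06), a 3.45-fold rise. With 32-134D the level lay below vehicle at 20% O2 by a log2 fold change of -0.55 ± 0.17 (FDR 0.0607). Replicate 3 of 32-134D had the lowest value of its group, and without it the difference from vehicle at 20% O2 was -0.34, while without replicate 2 it was -0.73 (FDR 0.0160), which would be a call.

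KCNQ1, the potassium channel gene that KCNQ1OT1 overlaps in antisense, changed in the same direction at a lower level. It stood at 5.43 ± 0.601 CPM in vehicle at 20% O2, 1.81 ± 0.541 in vehicle at 1% O2 and 3.71 ± 0.682 with 32-134D (SD, n = 3), with log2 fold changes of -1.60 ± 0.23 and 1.08 ± 0.22. Whether reads were counted by strand is not given in the sources used here, and without strand, reads of unspliced KCNQ1 and of KCNQ1OT1 cannot be told apart. Of the 10 listed genes of the domain, 8 were tested. In hypoxia 1 rose, TSSC4 (log2 fold change 0.94 ± 0.09), and 2 fell, KCNQ1 and CDKN1C (-0.90 ± 0.21), a cell cycle inhibitor that is silenced on the chromosome that makes KCNQ1OT1. With 32-134D, KCNQ1 rose and TSSC4 fell by 0.69 on the log2 scale, and CDKN1C differed by 0.23 ± 0.20. Without replicate 3 of 32-134D, 2 rose and 1 fell, the added one being ASCL2 (2.96), a value resting on very few reads. ASCL2 had 1, 1 and 3 reads in vehicle at 20% O2, 0, 1 and 0 in vehicle at 1% O2, and 4, 4 and 0 with 32-134D. With all libraries it was not called with 32-134D, at 2.51 ± 1.21 (FDR 0.105). With all libraries, 12.5% of the 8 were called higher and 25.0% lower in hypoxia, beside 19.5% and 20.3% of all genes tested. With 32-134D the share was 12.5% each way, beside 16.2% and 13.7%. The list's median was -0.02 in hypoxia and 0.17 with 32-134D.

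LUCAT1 was close to the limit of detection, with 117 reads in all. It had 2, 0 and 2 reads in vehicle at 20% O2, 30, 3 and 17 in vehicle at 1% O2, and 17, 10 and 36 with 32-134D. The vehicle groups overlapped in CPM, since replicate 2 at 1% O2 stood at 0.141 and replicate 1 at 20% O2 at 0.143, while all 32-134D libraries lay above all vehicle libraries at 20% O2. Pooled over libraries and scaled to depth, the ratio of vehicle at 1% to 20% O2 was 7.57 (exact 95% interval 2.78 to 28.9), and that of 32-134D to vehicle at 20% O2 was 9.65 (3.59 to 36.5), intervals that cover counting error only. The edgeR FDR was 0.0267 in hypoxia and 0.0394 for 32-134D against vehicle at 20% O2, with log2 fold changes of 2.77 ± 0.98 and 3.27 ± 0.94. The call in hypoxia was lost without vehicle replicate 1 (FDR 0.0506), 2 (0.0601) or 3 (0.165) at 20% O2, without replicate 1 (0.110) or 3 (0.0523) at 1% O2, and after thinning to the smallest library (0.0588). The second call was lost without vehicle replicate 1 (FDR 0.0742), 2 (0.109) or 3 (0.223) at 20% O2, without replicate 1 at 1% O2 (0.0501) and in a fit of only these groups (0.0605).

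Between 32-134D and vehicle at 1% O2, LUCAT1 differed by 0.51 ± 0.57 on the log2 scale (FDR 0.503), and the pooled ratio was 1.28 (0.866 to 1.89). Without replicate 3 of 32-134D, the highest library, the log2 difference was -0.40. The gene model covers 260 kb where the RefSeq gene covers 11.4 kb, and it overlaps ADGRV1, which moved the other way, from 11.5 ± 2.30 CPM in vehicle at 20% O2 to 2.90 ± 0.143 in vehicle at 1% O2 and 9.87 ± 2.6 with 32-134D. ARRDC3, the neighbour on the other side and a regulator of receptor trafficking, rose by 4.09 ± 0.10 on the log2 scale in hypoxia, from 13.1 ± 1.25 to 220.9 ± 18 CPM, and fell by 1.64 with 32-134D.

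PVT1, the noncoding neighbour of MYC, was not called. It stood at 3.23, 3.77 and 3.56 CPM in vehicle at 20% O2, at 3.87, 3.30 and 3.35 in vehicle at 1% O2, and at 3.66, 4.48 and 6.91 with 32-134D. The vehicle groups overlapped fully, with a log2 fold change of 0.01 ± 0.23 (FDR 0.972, 95% interval -0.475 to 0.50), and replicate 3 of 32-134D lay apart above all others. With 32-134D the log2 fold change was 0.49 ± 0.21 (FDR 0.0668). It was 0.20 (FDR 0.336) without that library, while it would be a call under total library size scaling (0.67, FDR 0.0161), after thinning (1.04, FDR 0.00438), with the length trend removed (0.59, FDR 0.0305) or without 32-134D replicate 1 (0.74, FDR 0.00882) or 2 (0.61, FDR 0.0487). MYC, in contrast, rose from 92.8 ± 0.516 to 196.8 ± 5.30 CPM in hypoxia (log2 fold change 1.08 ± 0.13) and stood at 151.0 ± 39.1 with 32-134D, 0.70 above vehicle at 20% O2 on the log2 scale. Its highest 32-134D value, 195.9 CPM, stood against a lowest of 124.7. Without replicate 3 of 32-134D, MYC was 0.47 above vehicle at 20% O2, no longer a call, and it was called lower than in vehicle at 1% O2, with a log2 fold change of -0.62.

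The HULC row stood at 15.4, 12.1 and 12.5 CPM in vehicle at 20% O2, at 20.0, 20.8 and 19 in vehicle at 1% O2, and at 15.5, 15.9 and 12 with 32-134D. Every hypoxic vehicle library lay above all others. The log2 fold change was 0.57 ± 0.13 in hypoxia (FDR 0.00158), a 1.49-fold difference just under the threshold of 1.5, and -0.46 ± 0.12 with 32-134D (FDR 0.00669), also under it. Under total library size scaling these were 0.36 (FDR 0.0315) and -0.27 (FDR 0.0947). It would be a call in hypoxia in a fit of only these groups (0.59), with no filter on low counts (0.60), and without vehicle replicate 1 at 20% O2 (0.64) or replicate 3 at 1% O2 (0.60). SLC35B3, a transporter gene of the nucleotide sugar family whose start the model overlaps on the other strand, moved alike, from 31.0 ± 2.26 to 50.8 ± 0.593 and back to 31.4 ± 0.971 CPM, with log2 fold changes of 0.71 ± 0.08 and -0.69 ± 0.08. EEF1E1, a further neighbour, was not called, with log2 fold changes of -0.05 ± 0.13 and 0.20 ± 0.13.

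Levels of different genes can be set side by side only per length of their exons. The mean level in vehicle at 20% O2 was 57.2 CPM per kb for MALAT1, 8.53 for NEAT1, 1.63 for MIR210HG, 0.641 for PVT1 and 0.481 for KCNQ1OT1. In vehicle at 1% O2 MALAT1 was at 66.2, MIR210HG at 3.32 and NEAT1 at 2.0 CPM per kb, so that MIR210HG lay above NEAT1 on this scale, and PVT1 (0.639) lay above KCNQ1OT1 (0.0959). With 32-134D, NEAT1 (5.90) again lay above MIR210HG (1.25), PVT1 stood at 0.913 and KCNQ1OT1 at 0.329. The values of HULC (0.276, 0.412 and 0.299) and of LUCAT1 (0.00412, 0.0307 and 0.0497 in the same order of groups) rest on gene models far longer than the RefSeq genes and are not comparable with the rest.

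The share of the log2 change in hypoxia that was absent with 32-134D was computed for each 32-134D library, as a description that shares the hypoxic vehicle libraries with both comparisons. It was 79.8%, 77.5% and 65.8% for NEAT1, a mean of 74.4% ± 7.54 (SD, n = 3). For KCNQ1OT1 it was 82.9%, 90.2% and 50.3%, a mean of 74.4% ± 21.2, with replicate 3 far below the other libraries. For MIR210HG it was 111%, 120% and 191%, so each 32-134D library lay below the mean of vehicle at 20% O2. For LUCAT1 it was -28.9% ± 56.9, a value whose sign is within its spread.

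NEAT1 and KCNQ1OT1 have the longest exonic sequence of the members measured on their own models, 22.8 and 91.7 kb, and long genes as a class moved in the same directions. Of the 1558 genes with at least 1 CPM and more than 10 kb of exonic sequence, 12.5% were called higher and 41.4% lower in hypoxia, and 39.3% were called higher and 6.48% lower with 32-134D. Long noncoding RNAs moved likewise. Of the 1064 with a mean of at least 1 CPM, 14.1% rose and 43.1% fell in hypoxia, and 35.3% rose and 12.7% fell with 32-134D. Of the 131 genes with at least 1 CPM and 20 kb or more, 9.92% rose and 52.7% fell in hypoxia. In that class 51.9% rose and 6.11% fell with 32-134D. A fall of NEAT1 and KCNQ1OT1 thus stands against 43.1% by class or 52.7% by length, and not 20.3%. When the trend over exonic length was removed from each library, an alternative chosen after seeing the data, the log2 fold changes became -1.43 and 0.97 for NEAT1 and -0.84 and 0.52 for KCNQ1OT1 (FDR 0.0319 for the last, under the fold change threshold). MIR210HG, with 2.32 kb, then changed by 0.78 and -1.15. Only 131 genes with at least 1 CPM had 20 kb or more, so the trend is poorly fixed at the length of KCNQ1OT1.

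A list of RNAs that lack a poly(A) tail or are encoded in mitochondria was read beside these values. RN7SK, RN7SL2, RMRP, RPPH1 and SCARNA2 had 0 reads in every library. RN7SL1 was counted in every library, with 75 to 506 reads. Its means were 13.2 CPM in vehicle at 20% O2, 10.4 in vehicle at 1% O2 and 10.2 with 32-134D. The summed level of the mitochondrial ribosomal RNAs MT-RNR1 and MT-RNR2 was 5700 to 6170 CPM in vehicle at 20% O2, 24400 to 29100 in vehicle at 1% O2 and 9800 to 11400 with 32-134D. The other 12 genes of that list, mostly reads of the histone gene H2AX (140.8 CPM in vehicle at 20% O2), summed to 212 to 228, 148 to 153 and 121 to 186 CPM. Of the 9 tested, 2 rose and 3 fell in hypoxia, 22.2% and 33.3% beside 19.5% and 20.3% of all genes tested. With 32-134D 2 rose and 2 fell, 22.2% each way beside 16.2% and 13.7%. Without replicate 3 of 32-134D, H2BC12 also rose with 32-134D (0.67). How the RNA was selected for sequencing is not given in the sources used here, and the part of these differences in the results for NEAT1 and MALAT1, whose long form and mature end lack an added tail, was not tested.

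**Figure D4:**
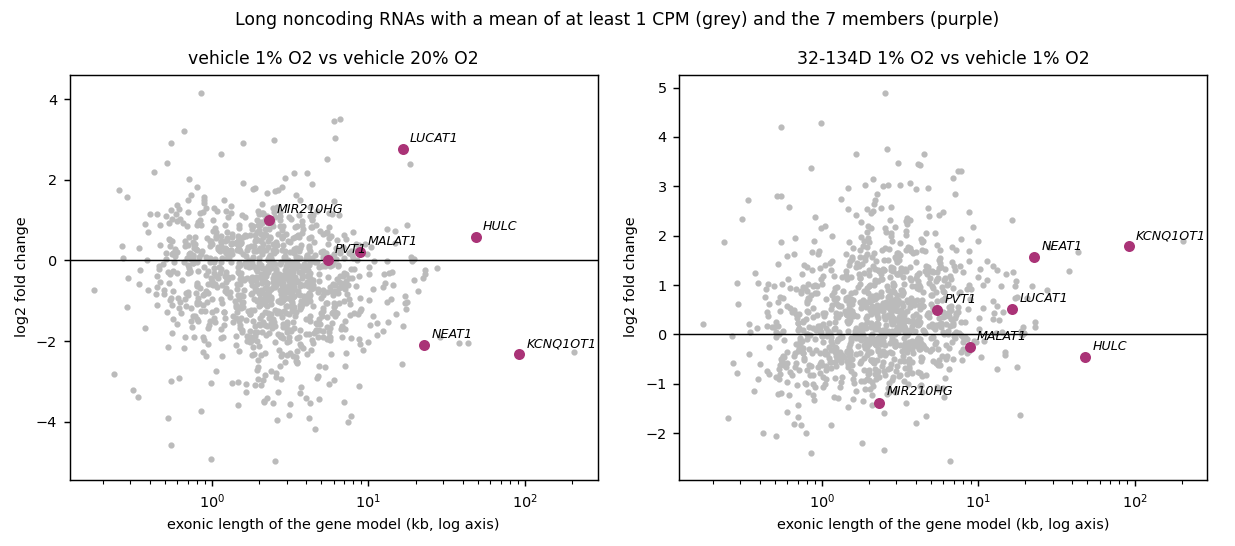
Log2 fold change against exonic length (kb, log axis) for long noncoding RNAs with a mean of at least 1 CPM (grey) and the 7 members (purple), in hypoxia (left) and with 32-134D (right). NEAT1 (22.8 kb) and KCNQ1OT1 (91.7 kb) lie at the long end with -2.09 and -2.33 on the left and 1.56 and 1.78 on the right, and HULC is drawn at the 48.4 kb of its wide model.

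Other long noncoding RNAs that are described as hypoxia-responsive changed in both directions. Of 18 listed, 12 were tested, and 3 rose in hypoxia: GAS5 (log2 fold change 1.51 ± 0.11, from 62.7 ± 6.16 to 178.4 ± 4.2 CPM), a host of small nucleolar RNAs, CYTOR (0.88 ± 0.15) and SNHG12 (0.59 ± 0.12). CDKN2B-AS1, antisense to a cell cycle inhibitor locus, fell (-1.30 ± 0.19) and rose with 32-134D (1.27 ± 0.18). With 32-134D, GAS5 fell by 0.66, CYTOR by 0.66 and UCA1 by 0.77 on the log2 scale, and GAS5 was 0.85 above vehicle at 20% O2. Called higher and lower were 25.0% and 8.33% of the 12 in hypoxia, beside 19.5% and 20.3% of all genes tested. With 32-134D the shares were 8.33% and 25.0%, beside 16.2% and 13.7%. The list's medians were 0.01 in hypoxia and 0.19 with 32-134D. H19, the most abundant of them at 2635 ± 201.4 CPM in vehicle at 20% O2, differed by 0.09 ± 0.16 in hypoxia. Without replicate 3 of 32-134D these counts fell to 2 higher in hypoxia and 1 lower with 32-134D, since SNHG12 in hypoxia (0.58) and CYTOR (-0.56) and UCA1 (-0.40) with 32-134D were then not called, and to 2 and 0 under total library size scaling.

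Of 18 other long noncoding RNAs of liver and liver cancer, 14 were tested, and 3 rose and 6 fell in hypoxia. These are 21.4% and 42.9% of the list, beside 7.44% and 23.2% of all tested long noncoding RNAs. Among long noncoding RNAs with at least 1 CPM the shares were 14.1% and 43.1%, but the list also holds genes below that level. The snoRNA hosts ZFAS1 (1.66 ± 0.11), SNHG6 (0.70 ± 0.11) and SNHG1 (0.69 ± 0.08) rose, although 1 of the 14 rose under total library size scaling. FTX fell from 20.2 ± 0.374 to 5.44 ± 0.343 CPM (log2 fold change -1.90 ± 0.12). SNHG3 also fell (-0.85 ± 0.13), and FAM99A, FAM99B and LINC01146 fell on at most 15 reads per library. With 32-134D 4 rose, FTX (1.78 ± 0.12), SNHG3 (0.94 ± 0.12) and FAM99B among them, and ZFAS1 fell (-0.80 ± 0.10). The shares were 28.6% and 7.14%, beside 17.8% and 6.03% of all tested long noncoding RNAs. They were 35.3% and 12.7% among those with at least 1 CPM. The medians were -0.59 and 0.84, beside -0.48 and 0.29 for all tested long noncoding RNAs.

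Among 15 genomic neighbours of the members, 14 were tested. In hypoxia 5 rose (RASSF7, HRAS, MYC, ARRDC3 and SLC35B3) and 5 fell (LRRC56, FRMD8, SLC25A45, LTBP3 and ADGRV1), 35.7% each way beside 19.5% and 20.3% of all genes tested. With 32-134D 3 rose and 4 fell, 21.4% and 28.6% beside 16.2% and 13.7%. Total library size scaling gave 3 and 6 in hypoxia and 5 and 2 with 32-134D. Without replicate 3 of 32-134D, 4 rose and 5 fell with 32-134D, the added ones being SLC25A45 (0.61) and MYC. FRMD8, SLC25A45 and LTBP3 surround NEAT1 and MALAT1, with log2 fold changes of -0.65, -0.96 and -1.05 in hypoxia. With 32-134D, LTBP3 rose by 0.63 on the log2 scale, and FRMD8 and SLC25A45 differed by 0.45 each, under the fold change threshold. The medians of the list were 0.09 and 0.004.

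**Figure D5:**
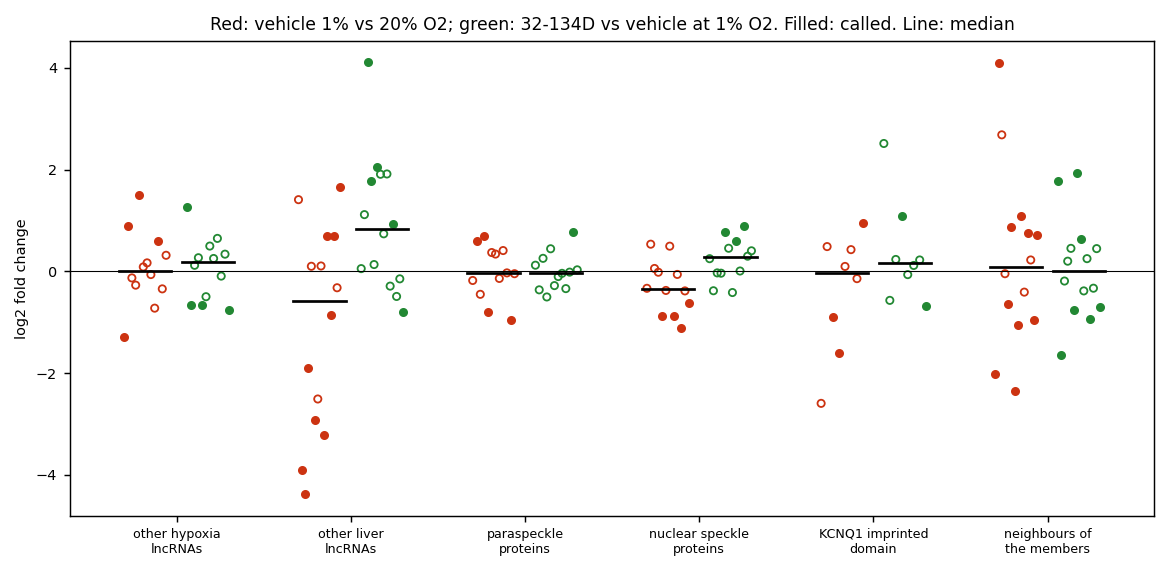
Log2 fold changes of the genes in 6 context lists, red for vehicle at 1% against 20% O2 and green for 32-134D against vehicle at 1% O2; filled points passed both thresholds and the line is the median. The other liver long noncoding RNAs have medians of -0.59 and 0.84, and the nuclear speckle proteins -0.36 and 0.27.

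The genes whose log2 CPM over the 9 libraries was most like that of each member were found by Pearson's r among 13911 genes with at least 1 CPM, as a description over libraries that share the same 3 groups. For MIR210HG they were TMEM141 (r = 0.996), OBSL1 (0.995) and SMAD5-AS1 (0.993). For NEAT1 they were CLUH (0.999), DGLUCY (0.998) and SPHK2 (0.998), and for KCNQ1OT1 they were CASTOR2 (0.998) and MUC6 (0.997). For MALAT1 they were MIR1244-2 (0.983), NDUFB6 (0.970) and MRPS12 (0.969). For HULC they were RAB1A (0.984), ID4 (0.984) and UGP2 (0.983). For PVT1 they were CYP1B1 (0.975), NSUN6 (0.971) and MAPKAPK5 (0.970), and for the sparse LUCAT1 they were CBFB (0.972), TMA16 (0.962) and CDC27 (0.941). Between members, the highest value was that of NEAT1 with KCNQ1OT1 (r = 0.986), followed by MIR210HG with HULC (0.857).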

How the data were processed

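The authors deposited raw counts of reads per Ensembl gene for 9 libraries of Hep3B cells, made with FastQC, Bbduk, STAR, the GRCh38 assembly with Ensembl release 100 and featureCounts. Tool versions, the strand setting and the RNA selection are not given in the sources used here. The labels also name MultiQC and DESeq2. The 9 columns were matched to the samples by name. The counts of genes with at least 10 reads over all libraries were fitted with edgeR 4.0.16 (TMM, quasi-likelihood test, R 4.3.3) in 1 fit of the 3 groups, as were simulated data used to test the procedure. SE is the log2 fold change over the root of the F statistic, and 95% intervals use the t distribution with edgeR's degrees of freedom. Calls needed an FDR below 0.05 and a fold change above 1.5. GENCODE version 29 gave positions, lengths and classes, with 22265 of the 22672 tested genes matched. It is an older annotation than the one counted on. The members, the gene lists, the markers and the tests were chosen with earlier results of these data known. The text names the members, genes of the lists and, per member, the 3 genes with the most similar log2 CPM (prior count 2). The values of 3 genes under this rule are not reported here. Alternatives were DESeq2 1.42.0, RLE or total library size scaling, other filters and fold change thresholds, fits of 2 groups, thinning, a replicate block, leaving out each library and, after seeing the data, removal of the length trend. Total counts of 6013980 to 40549699 and 3 libraries per group limit the precision.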

Additional observations from a re-analysis of the deposited data

How the results depend on the processing

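Of 374 log2 fold changes of members recomputed under alternatives, 335 kept their direction and their side of the thresholds, 12 lost a call, 12 gained a call and 15 changed sign. The counts of members called in hypoxia (4) and with 32-134D (3) stayed within 1.5 times under every alternative run, at 3 to 4 when each library was left out. The count for 32-134D against vehicle at 20% O2 was 1, and it became 2 with no fold change threshold and 0 with DESeq2, with at least 10 reads in every library and in a fit of the 2 groups. It ran from 0 to 2 when each library was left out. Values of 0 came from the loss of LUCAT1, which could not be fitted with at least 10 reads in every library. The added member was KCNQ1OT1 without 32-134D replicate 2, and NEAT1 with no fold change threshold. The log2 fold change of MALAT1 in hypoxia was -0.0061 under total library size. That of PVT1 in hypoxia was -0.036 with DESeq2, -0.033 with RLE size factors, -0.20 with total library size, -0.095 with at least 10 reads in every library, -0.31 after thinning and -0.11 without the length trend, and ran from -0.093 to 0.048 when each library was left out. In the same way, LUCAT1 with 32-134D ran from -0.40 to 1.00 and MALAT1 with 32-134D against vehicle at 20% O2 from -0.14 to 0.17, and the share of the LUCAT1 change removed ran from -62.8% to 3.32%. The HULC row was called without the length trend, at 1.65 in hypoxia and -1.40 with 32-134D, values set by the length of its wide model. Total library size moved the median of all genes by -0.21 in hypoxia and 0.18 with 32-134D, and the percentage of calls that were higher from 49.0 to 34.5 and from 54.2 to 72.0. With the replicate number as a block, 4, 3 and 1 members were called in the 3 comparisons, as without it. Deviations of same-numbered libraries had correlations from -0.144 to 0.062, and those of differently numbered libraries from -0.146 to 0.163. With 3 libraries per group, these values cannot settle whether same-numbered libraries were paired. The cause of the other changes was not tested. Low counts limit LUCAT1 most.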
